A study of Sus scrofa with 6 samples.

Results

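Toll-like receptors and the NF-kappaB pathway below them were followed in brain tissue of a domesticated pig breed and of wild boar. A list of 52 genes named for this pathway was matched by symbol to the deposited table of 18225 genes, and 45 of them have a row, each under 1 identifier. The other 7 (NOD2, TICAM2, TOLLIP, TRAF6, TBK1, RELB and CYLD) were not analysed here. Messenger RNA was measured in brain, with no region given, from 3 Rongchang pigs, a domesticated Chinese breed, and 3 wild boars. All animals were 210 days old, no treatment is named for either breed, and the series' title asks whether the immune response differs between them. The labels number the animals but give no farm, sex or litter, and each p-value rests on the spread among these 6 libraries. Values are FPKM, fragments counted per transcript length and per library size, which allows levels of different genes to be compared. Fold changes are Rongchang minus wild boar in log2(FPKM + 1), a scale that understates changes of genes with low values.

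Toll-like receptors recognise microbial and damage-derived molecules at the cell surface or in endosomes. In human and mouse cells they recruit adaptors such as MYD88 and TICAM1, which bring together IRAK and RIPK kinases, TRAF proteins and the kinase MAP3K7 with its TAB partners. MAP3K7 activates the IkappaB kinase complex of CHUK, IKBKB and IKBKG, which marks IkappaB inhibitors for destruction and so frees NF-kappaB dimers to enter the nucleus. Several inhibitors, NFKBIA and TNFAIP3 among them, are themselves induced by NF-kappaB and close the loop. In brain the receptors are known mostly from microglia, the resident macrophages, while much of the machinery below them is present in many cell types.

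None of the 35 members tested differed between the breeds after adjustment over all genes (0 called by limma, adjusted p from 0.789 to 0.997), where 1 of 13152 genes did (0.00760%). The smallest unadjusted p belonged to the kinases MAP3K7 and CHUK, both higher in Rongchang, and these 2 of 35 had an unadjusted p under 0.05, against 6.0% of all genes. The median gene itself was higher in Rongchang by 0.13 log2 units, and 77.9% of all genes lay above 0. Of the 35 members, 26 lay above 0 (74.3%), with a median of 0.11, and 15 lay above the median gene. After each library was scaled to the same median, 13 of the 35 lay above 0, beside 46.4% of all genes. The count above 0 therefore depends on the scaling between libraries, and fold changes of the leading members are also given relative to the median gene.

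Rongchang 3 stood apart from the other libraries in its makeup. Mitochondrially encoded genes took 30.0% of its summed FPKM, against 39.9% to 46.8% in the other 5 libraries. The part of this in the values highest in that library was not tested.

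The layers of the pathway differed in level. Receptors had the lowest median of the 5 layers, 1.35 FPKM, against 4.01 FPKM for kinases and 7.83 FPKM for inhibitors. The highest of the 13 with a row, CD14, averaged 4.86 FPKM over the 6 libraries, and 5 of them averaged under 1 FPKM. In the other layers 5 of 10 adaptors, 5 of 12 kinases, 3 of 5 transcription factors and 3 of 5 inhibitors averaged 5 FPKM or more. The most abundant members were TAB1 (21.4 FPKM), NFKBIB (14.4 FPKM), TRAF3 (13.9 FPKM) and NFKBIA (13.7 FPKM), higher than 77.4% to 85.0% of all genes in the table. The 10 members under 1 FPKM on average (TLR6, TLR7, TLR8, TLR9, TLR10, TRAF5, IRAK3, IKBKE, REL and TNFAIP3) are the ones that missed the filter on low values and were not tested.

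**Figure D1:**
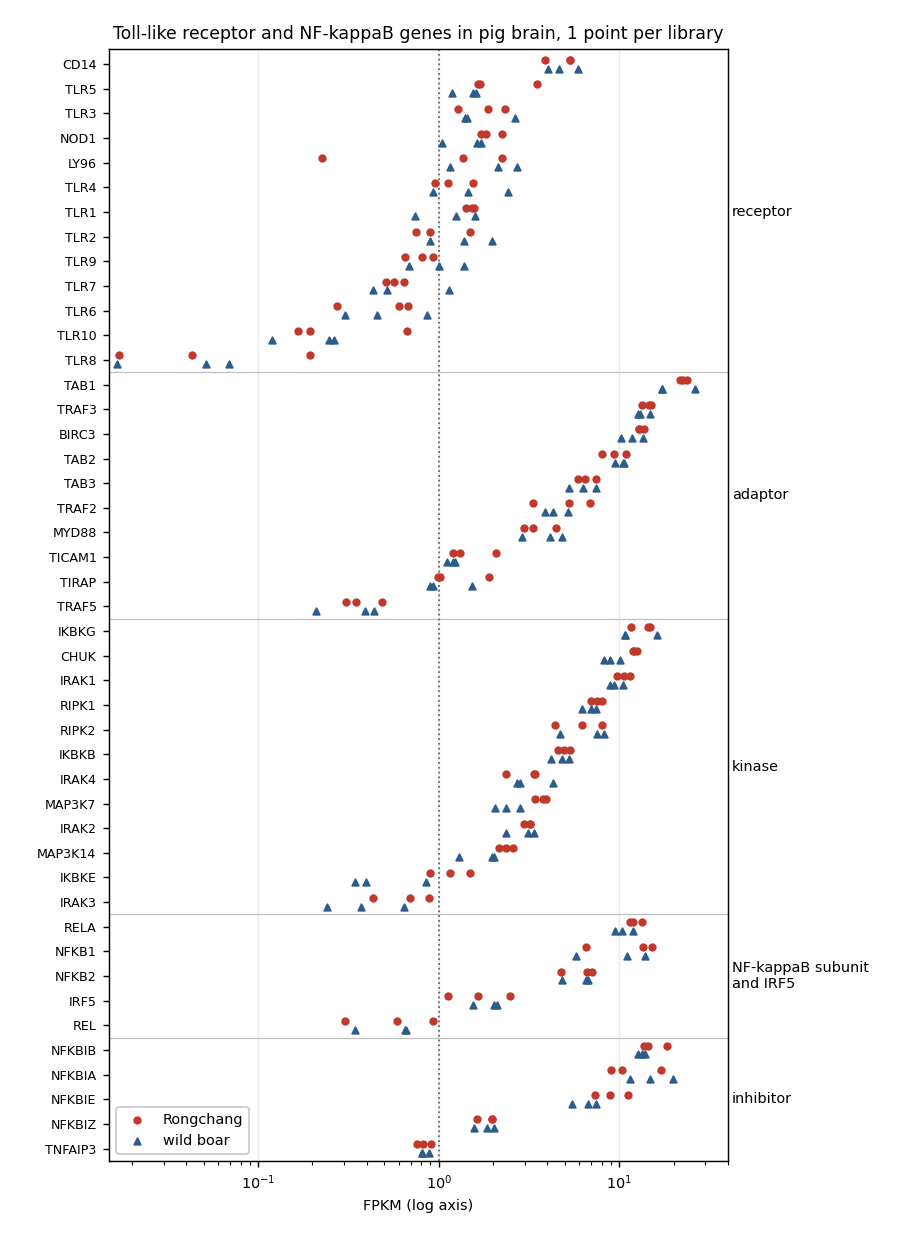
FPKM of the 45 genes with a row, on a log axis, with 1 point per library (red circles, Rongchang; blue triangles, wild boar), grouped by layer and ordered by mean; the dotted line marks 1 FPKM. Receptors lie at or below 5.9 FPKM in every library, while TAB1 reaches 26.4 FPKM, and the breeds overlap for most genes.

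Among receptors, the toll-like receptors proper were all low. TLR5, the flagellin receptor, averaged 1.87 FPKM over the 6 libraries and TLR3, which binds double-stranded RNA, 1.83 FPKM. They were followed by the lipopolysaccharide receptor TLR4 (1.40 FPKM), TLR1 (1.35 FPKM) and its lipopeptide-sensing partner TLR2 (1.23 FPKM). The ranges of these 5 genes over the libraries overlapped, so their order is not firm. The endosomal receptors other than TLR3 came lower, with the CpG DNA receptor TLR9 at 0.908 FPKM and the single-stranded RNA receptors TLR7 and TLR8 at 0.635 and 0.0654 FPKM. TLR6 averaged 0.531 FPKM and TLR10 0.277 FPKM.

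TLR5 stood at 1.65, 3.52 and 1.70 FPKM in Rongchang, against 1.55, 1.19 and 1.62 FPKM in wild boar. It was the 1 receptor tested whose breeds did not overlap, but the lowest Rongchang value and the highest wild boar value were close, and Rongchang 2 alone stood well above the rest (log2 fold change 0.38 ± 0.23 SE, adjusted p = 0.811). Without Rongchang 2 the fold change of TLR5 was 0.13. NOD1, a cytosolic sensor of bacterial peptidoglycan, stood at 1.83, 1.72 and 2.24 FPKM in Rongchang and 1.72, 1.64 and 1.05 FPKM in wild boar, and its fold change was 0.25. TLR1 was even in Rongchang at 1.56, 1.54 and 1.43 FPKM, and spread in wild boar at 1.59, 0.741 and 1.26 FPKM (0.21). CD14, which passes lipopolysaccharide on to TLR4, had equal means of 4.86 ± 0.850 FPKM in Rongchang and 4.85 ± 0.964 FPKM in wild boar (SD, n = 3 each), with libraries at 5.35, 3.88 and 5.34 FPKM in Rongchang and 4.65, 4.01 and 5.90 FPKM in wild boar. For CD14 the fitted difference was 0.00. Its 95% confidence interval, not adjusted for the number of genes, ran from −0.42 to 0.42. A difference of up to about that size in either direction was thus not excluded with 3 animals a breed.

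LY96, the co-receptor that holds lipopolysaccharide on TLR4, was the most uneven receptor. It stood at 2.25, 0.227 and 1.37 FPKM in Rongchang, against 2.14, 1.15 and 2.70 FPKM in wild boar. Rongchang 2 was the lowest library, and wild boar 2 was the lowest of its breed. The log2 fold change was −0.47 ± 0.36 SE (adjusted p = 0.849). It was −0.08 without Rongchang 2 and −0.30 without both libraries numbered 2. TLR2 and TLR4 also had lower means in Rongchang, at 1.05 ± 0.40 against 1.42 ± 0.547 FPKM in wild boar for TLR2 and at 1.21 ± 0.30 against 1.60 ± 0.748 FPKM for TLR4, with overlapping libraries. TLR3 averaged 1.83 ± 0.529 FPKM in Rongchang and 1.82 ± 0.709 FPKM in wild boar.

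The summed levels of the receptors and of microglia markers were both lowest in animal 2 of each breed. The 13 receptor genes summed to 19.4, 16.4 and 18.9 FPKM in Rongchang and to 21.1, 13.9 and 19.96 FPKM in wild boar. The 9 microglia markers with a row, among them C1QA, CX3CR1 and TYROBP, summed to 128, 82.7 and 137 FPKM in Rongchang and to 144, 67.8 and 120 FPKM in wild boar. Single genes did not all follow the sums. Of the 13 receptors, 5 (CD14, LY96, TLR2, TLR6 and TLR8) were lowest in animal 2 of both breeds. TLR5 and TLR10 were highest of all libraries in Rongchang 2, and TLR7 was highest there among the Rongchang pigs only. Of the 9 markers, 6 were lowest in animal 2 of both breeds, and ITGAM, PTPRC and CD68 were not. Summed markers of astrocytes were also lowest there, at 2222 FPKM in Rongchang and 1900.1 FPKM in wild boar, as were those of oligodendrocytes, at 1595 FPKM in Rongchang and 1229.8 FPKM in wild boar. Summed markers of neurons were not, at 1495, 2026 and 2183 FPKM in Rongchang and 1453, 2005 and 1959 FPKM in wild boar. Summed markers of endothelial cells stood at 23.4, 22.8 and 18.2 FPKM in Rongchang and 27.9, 26.7 and 27.5 FPKM in wild boar. These sums did not overlap between the breeds. The log2 fold changes of PECAM1, TIE1 and FLT1 were −0.38, −0.29 and −0.24, where 77.9% of all genes tested lay above 0. The libraries of each of these genes overlapped between the breeds, and none was called. In bulk tissue, fewer cells of a type and less RNA per cell cannot be told apart. All 9 microglia markers stood above 1 FPKM on average and none was called between the breeds. Of 9 leukocyte markers from blood, 7 averaged under 1 FPKM, and the list summed to 3.65 to 8.66 FPKM in Rongchang and 3.86 to 5.15 FPKM in wild boar, the highest value coming from S100A8 at 4.92 FPKM in Rongchang 3. Of these 9 markers, 8 had the higher mean in Rongchang, where 77.9% of all genes tested had a fold change above 0. The ratios of means were near even for MS4A1 (1.02) and CD4 (1.06), and only 2 of the 9 passed the filter on low values. CD8A, a marker of cytotoxic T cells, stood at 1.06, 1.003 and 1.11 FPKM in Rongchang, against 0.484, 0.487 and 0.418 FPKM in wild boar. Its breeds did not overlap (adjusted p = 0.766), and 11.4% of all genes tested were likewise fully higher in Rongchang. The astrocyte marker ALDH1L1 (log2 fold change 0.75, limma adjusted p = 0.766) was also fully higher there. So was the oligodendrocyte marker CNP (0.42, limma adjusted p = 0.789). The beta-globin gene HBB, from red blood cells, was also lowest in animal 2 of each breed, at 66.9 FPKM in Rongchang against 57.7 FPKM in wild boar. The part of cell makeup in the receptor values was not tested.

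**Figure D2:**
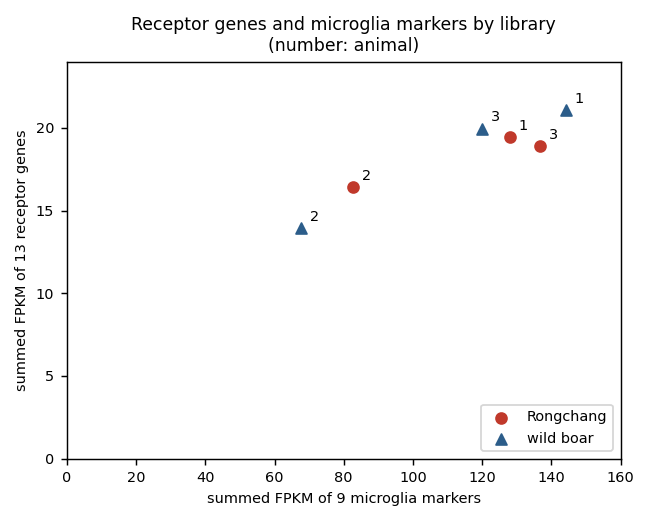
Summed FPKM of the 13 receptor genes (y axis) against summed FPKM of 9 microglia markers (x axis), 1 point per library, numbered by animal (red circles, Rongchang; blue triangles, wild boar). The libraries of animal 2 lie lowest on both axes, at 16.4 FPKM for the receptors in Rongchang and 13.9 FPKM in wild boar.

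Adaptors and ubiquitin ligases were spread over a wide range of levels and showed no called difference (9 tested, 7 above 0, median 0.11). The adaptors that bind toll-like receptors directly were scarce. MYD88, used by nearly all of them, averaged 3.59 ± 0.797 FPKM in Rongchang and 3.97 ± 0.978 FPKM in wild boar. TIRAP, which bridges MYD88 to TLR2 and TLR4, averaged 1.3 ± 0.510 FPKM in Rongchang and 1.11 ± 0.353 FPKM in wild boar. TICAM1, the adaptor of TLR3, stood at 1.2, 1.31 and 2.08 FPKM in Rongchang, against 1.12, 1.2 and 1.24 FPKM in wild boar (log2 fold change 0.20). Rongchang 3 alone was high, and without it the fold change of TICAM1 was 0.0459.

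The machinery shared by the receptors was more abundant. TAB1, which binds and activates MAP3K7, stood at 23.7, 22.5 and 21.6 FPKM in Rongchang, against 17.1, 26.4 and 17.3 FPKM in wild boar. The highest and the lowest values both came from wild boars, and the log2 fold change was 0.18 ± 0.19 SE. TAB2, a ubiquitin-binding partner of MAP3K7, stood at 9.34, 10.9 and 8.07 FPKM in Rongchang and 10.6, 10.5 and 9.48 FPKM in wild boar (−0.11). TAB3 averaged 6.61 ± 0.790 FPKM in Rongchang and 6.31 ± 1.078 FPKM in wild boar. TRAF3, a ubiquitin ligase that restrains the alternative NF-kappaB branch, had the smallest within-breed SD of the members tested on the log2(FPKM + 1) scale, at 15.02, 14.5 and 13.4 FPKM in Rongchang, against 13.02, 14.9 and 12.8 FPKM in wild boar (0.07). BIRC3, a ubiquitin ligase and survival factor, stood at 12.9, 13.6 and 12.8 FPKM in Rongchang and 13.5, 10.2 and 11.7 FPKM in wild boar (0.15). TRAF2 averaged 5.15 ± 1.77 FPKM in Rongchang and 4.47 ± 0.678 FPKM in wild boar, and TRAF5 was low at 0.382 ± 0.0932 FPKM in Rongchang and 0.346 ± 0.121 FPKM in wild boar.

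The kinases held both members with an unadjusted p under 0.05. MAP3K7, also called TAK1, stood at 3.41, 3.92 and 3.77 FPKM in Rongchang, against 2.84, 2.37 and 2.06 FPKM in wild boar. Every Rongchang library lay above every wild boar library. Its log2 fold change was 0.46 ± 0.15 SE (unadjusted p = 0.0147, adjusted p = 0.789), or 0.33 above the median gene. CHUK, the catalytic subunit that alone can drive the alternative NF-kappaB branch, stood at 12.1, 11.9 and 12.5 FPKM in Rongchang, against 10.1, 8.20 and 8.84 FPKM in wild boar. The breeds again did not overlap, and the fold change was 0.39 ± 0.14 SE (unadjusted p = 0.0247, adjusted p = 0.789), or 0.26 above the median gene. After scaling to the same median, the unadjusted p was 0.0516 for MAP3K7 and 0.151 for CHUK. MAP3K14, the kinase that feeds CHUK in the alternative branch, stood at 2.17, 2.58 and 2.36 FPKM in Rongchang and 1.98, 2.01 and 1.3 FPKM in wild boar, without overlap (0.29 ± 0.16 SE, adjusted p = 0.793; 0.17 without wild boar 3).

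TLR5, MAP3K7, MAP3K14 and CHUK were the 4 of 35 members tested with every Rongchang library above every wild boar library, and none of the 35 had the reverse order. Over all genes 11.4% were fully higher in Rongchang and 1.12% fully lower, and 4 of 35 is a share of the same size. IKBKE, a kinase that activates interferon regulatory factors, was also fully higher in Rongchang, at 0.894, 1.48 and 1.16 FPKM against 0.856, 0.345 and 0.397 FPKM in wild boar, but it missed the filter on low values. With every gene above 0 FPKM admitted, its unadjusted p was 0.0159 (adjusted p = 0.803).

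The other 7 kinases tested had fold changes between −0.12 and 0.14. IRAK1, which links MYD88 to the TRAF proteins, stood at 9.76, 10.6 and 11.5 FPKM in Rongchang, against 8.88, 10.4 and 9.32 FPKM in wild boar (log2 fold change 0.14). RIPK2, the kinase of NOD1 signalling, had the widest spread within a breed of the kinases tested on the log2(FPKM + 1) scale, at 6.20 ± 1.81 FPKM in Rongchang and 6.82 ± 1.89 FPKM in wild boar. IRAK3, which restrains IRAK signalling, missed the filter and was not tested, at 0.672 ± 0.226 FPKM in Rongchang and 0.418 ± 0.205 FPKM in wild boar, a ratio of means of 1.61 with overlapping libraries. In the IkappaB kinase complex, IKBKB averaged 4.94 ± 0.385 FPKM in Rongchang and 4.77 ± 0.528 FPKM in wild boar (0.04, 95% confidence interval −0.29 to 0.38). The scaffold IKBKG stood at 14.4, 11.6 and 14.8 FPKM in Rongchang and 10.8, 16.2 and 10.8 FPKM in wild boar (0.12), and animal 2 was the lowest of the Rongchang pigs and the highest of the wild boars.

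**Figure D3:**
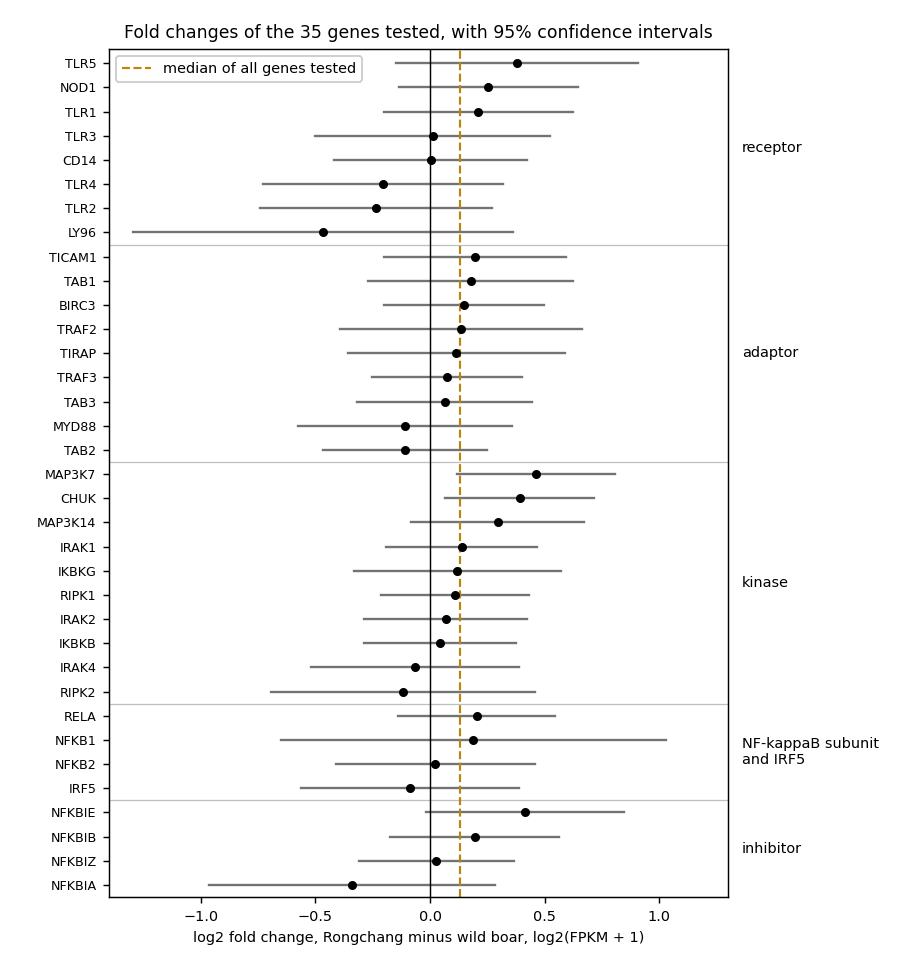
Log2 fold change (Rongchang minus wild boar, log2(FPKM + 1), x axis) of the 35 genes tested, by layer, with limma's 95% confidence intervals; the solid line marks 0 and the dashed line the median of all genes tested, 0.13. The intervals of MAP3K7 and CHUK lie above 0, and those of the other 33 genes include it; these intervals are not adjusted for the number of genes.

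Of the 4 transcription factors tested, RELA varied least within a breed and NFKB1 most on the log2(FPKM + 1) scale. RELA, the main transactivating subunit, stood at 11.5, 12 and 13.3 FPKM in Rongchang, against 10.3, 11.8 and 9.45 FPKM in wild boar (log2 fold change 0.20 ± 0.15 SE). NFKB1, its usual partner as the processed p50 protein, had the largest within-breed SD of the members tested on the log2(FPKM + 1) scale (0.592, against 0.581 for LY96), at 13.5, 15.3 and 6.57 FPKM in Rongchang and 11, 13.9 and 5.75 FPKM in wild boar. Animal 3 of each breed was lowest, and within each numbered pair the Rongchang value was the higher (0.19 ± 0.36 SE, adjusted p = 0.918). NFKB2, the precursor used in the alternative branch, stood at 6.62, 4.78 and 7.03 FPKM in Rongchang and 6.67, 4.82 and 6.55 FPKM in wild boar (0.02), nearly the same value for each animal number. REL, a subunit best known from lymphocytes, was low at 0.609 ± 0.315 FPKM in Rongchang and 0.551 ± 0.180 FPKM in wild boar. IRF5, a transcription factor activated through MYD88, stood at 1.13, 1.66 and 2.49 FPKM in Rongchang and 1.54, 2.02 and 2.09 FPKM in wild boar (−0.09).

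The IkappaB inhibitors lay on opposite sides of the median gene. NFKBIE, which encodes IkappaB-epsilon, stood at 7.31, 8.88 and 11.2 FPKM in Rongchang, against 5.46, 6.69 and 7.47 FPKM in wild boar. Its libraries overlapped by a little, and its log2 fold change of 0.41 ± 0.19 SE had the smallest p of the layer (unadjusted p = 0.0584, adjusted p = 0.789). Without Rongchang 3 it was 0.27. NFKBIA, which encodes IkappaB-alpha, stood at 8.97, 10.3 and 17.0 FPKM in Rongchang and 11.5, 14.8 and 19.9 FPKM in wild boar. Its fold change was −0.34 ± 0.27 SE (adjusted p = 0.856), or −0.47 against the median gene. With 1 library left out, the fold change of NFKBIA ranged from −0.60 without Rongchang 3 to −0.15 without wild boar 3, and was −0.17 without Rongchang 1 and −0.52 without wild boar 1. For both inhibitors animal 3 of each breed was highest and animal 1 lowest.

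NFKBIB, which encodes IkappaB-beta, stood at 14.5, 13.6 and 18.5 FPKM in Rongchang and 12.7, 13.9 and 13.3 FPKM in wild boar (log2 fold change 0.20, and 0.0710 without Rongchang 3). NFKBIZ, a nuclear member of the family, stood at 1.62, 1.98 and 1.98 FPKM in Rongchang and 1.56, 2.01 and 1.85 FPKM in wild boar (0.03). TNFAIP3, or A20, a deubiquitinating enzyme that ends NF-kappaB signalling, averaged 0.827 ± 0.0745 FPKM in Rongchang and 0.834 ± 0.0477 FPKM in wild boar, and was not tested.

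**Figure D4:**
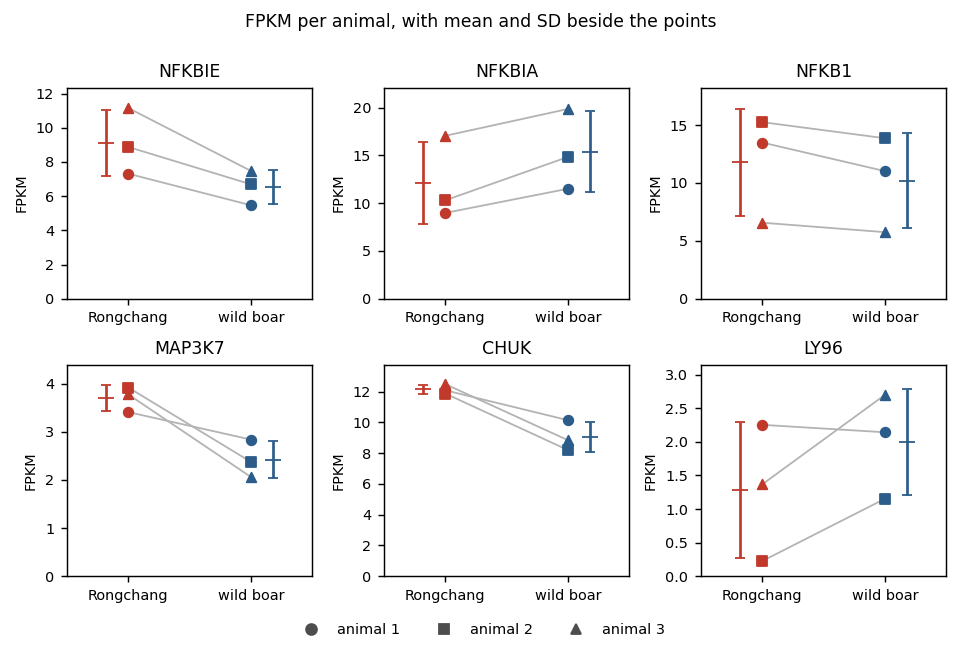
FPKM of 6 genes in each animal (y axis from 0), with Rongchang on the left and wild boar on the right; symbols give the animal number, grey lines join animals of the same number, and bars beside the points give mean and SD of 3 animals. NFKBIE is higher in Rongchang and NFKBIA lower in Rongchang along each line, and NFKB1 is lowest in animal 3 of both breeds.

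Animals of the same number resembled each other across breeds, though nothing in the labels says what the number marks. With the number as a block, 4 of the 35 members had an unadjusted p under 0.05, against 17.4% of all genes. They were NFKBIE, CHUK and MAP3K7, all higher in Rongchang, and NFKBIA, lower in Rongchang. None passed limma's test after adjustment over all genes, with adjusted p of 0.228 for NFKBIE, 0.232 for CHUK, 0.238 for MAP3K7 and 0.239 for NFKBIA. With the block and median scaling together, 4 of the 35 members again had an unadjusted p under 0.05, against 10.5% of all genes. These 4 were NFKBIE, higher in Rongchang, and NFKBIA, LY96 and RIPK2, lower in Rongchang. MAP3K7 and CHUK were then not among them. Within numbered pairs, 11 of 35 members were higher in Rongchang in all 3 pairs, beside 38.5% of all genes, and 3 of 35 were lower in all 3 (NFKBIA, RIPK2 and TLR2), beside 5.10% of all genes. Animal 2 was the lowest of both breeds for 8 of 35 members (22.9%, beside 21.4% of all genes), namely CD14, LY96, TLR2, MYD88, IRAK2, RIPK2, CHUK and NFKB2. Animal 3 was the highest of both breeds for 10 of 35 (28.6%, beside 19.4%), namely TLR2, MYD88, TIRAP, TICAM1, TRAF2, IRAK2, RIPK2, IRF5, NFKBIA and NFKBIE.

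Ratios of FPKM between a pair of members within a library do not depend on how libraries are scaled. Of the 595 ratios among the 35 members, 33 (5.55%) did not overlap between the breeds, beside 8.99% of all ratios between genes tested. The ratios named here were chosen after their values were seen and carry no test. The widest gap was that of NFKBIE to NFKBIA, at 0.815, 0.862 and 0.654 in Rongchang, against 0.475, 0.451 and 0.376 in wild boar. MAP3K7 to its partner TAB2 had the next widest, at 0.365, 0.359 and 0.468 in Rongchang, against 0.268, 0.225 and 0.217 in wild boar. MAP3K7 took part in 12 of the 33 ratios and CHUK in 8, more than any other member. MAP3K7 to IKBKB stood at 0.746, 0.734 and 0.767 in Rongchang, against 0.586, 0.451 and 0.489 in wild boar. Within the IkappaB kinase complex, CHUK to IKBKB stood at 2.65, 2.23 and 2.54 in Rongchang, against 2.10, 1.56 and 2.10 in wild boar.

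**Figure D5:**
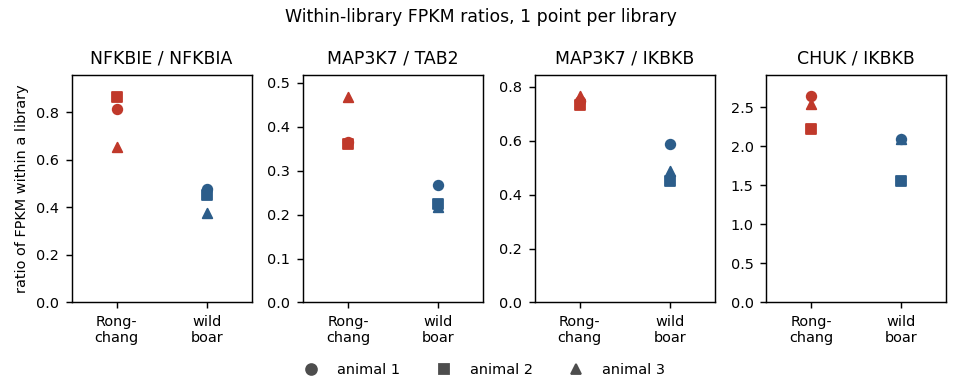
Ratios of FPKM between genes of the pathway within each library (y axis from 0), 1 point per library, with symbols for the animal number. In each of the 4 ratios the 3 Rongchang libraries lie above the 3 wild boar libraries; the NFKBIE to NFKBIA ratio is 0.654 or more in Rongchang and 0.475 or less in wild boar.

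Further genes of the pathway, 93 in 8 lists, were compared in the same fit. Of the 54 tested, 0 were called in either direction by limma, 5 had an unadjusted p under 0.05, all higher in Rongchang, and 43 (79.6%) lay above 0 with a median of 0.12. Over all 13152 genes tested, 713 of the 789 with an unadjusted p under 0.05 were higher in Rongchang, 77.9% lay above 0 and the median was 0.13. Of the 54, 6 were fully higher in Rongchang (CNPY3, ECSIT, ITCH, NKIRAS2, MAPK8 and MAPK9) and 1, BCL3, was fully lower. Over all genes 11.4% were fully higher and 1.12% fully lower. Among the proteins that fold and carry toll-like receptors, UNC93B1, which delivers the endosomal receptors, stood at 3.70, 2.11 and 4.60 FPKM in Rongchang, against 2.23, 1.88 and 1.73 FPKM in wild boar (0.56 log2 units, adjusted p = 0.789). CNPY3, a chaperone of the receptors, stood at 12.7, 10.7 and 16.7 FPKM in Rongchang and 10.5, 10.5 and 10.2 FPKM in wild boar (0.31). Neither passed, and LBP, the lipopolysaccharide-binding protein, had a fold change of 0.13.

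Among atypical inhibitors and their relatives, NKIRAS2, a small Ras-like protein that binds IkappaB-beta, had the smallest p of the 54. It stood at 3.93, 4.11 and 5.15 FPKM in Rongchang, against 3.04, 2.51 and 2.78 FPKM in wild boar, without overlap (log2 fold change 0.51, adjusted p = 0.766). BCL3, a nuclear IkappaB protein, was lower in all Rongchang libraries, at 0.904, 1.3 and 1.31 FPKM against 1.40, 1.83 and 1.69 FPKM in wild boar (−0.28, adjusted p = 0.793). COMMD1 had a fold change of 0.21. Among regulators, the adaptor ECSIT had a fold change of 0.32, the TNF receptors TNFRSF1A 0.24 and TNFRSF1B −0.21.

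In the ubiquitin machinery, 12 of 13 genes tested lay above 0, and the smallest p belonged to the ligase genes ITCH (log2 fold change 0.21), BTRC (0.29) and RNF31 (0.22), with a list median of 0.12 just under the median gene. In the BCL10 branch BCL10 had −0.20, CARD10 0.23 and MALT1 0.16. The MAP kinase branch, which MAP3K7 also drives, had MAPK9 at 26.0, 30.3 and 25.2 FPKM in Rongchang, against 17.7, 25.0 and 17.4 FPKM in wild boar (0.44, adjusted p = 0.789). MAPK8 (0.27) was likewise without overlap and FOS (0.33) was not. In the interferon branch IRF7 had 0.63, IRF1 0.36 and MAVS 0.18, none called.

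Genes that NF-kappaB is known to induce spanned a wide range of levels. Of the 10 with a row, 5 averaged 5 FPKM or more and 7 were tested. The chemokine CCL5 stood at 54.3, 17.3 and 34.0 FPKM in Rongchang, against 42.7, 13.5 and 40.5 FPKM in wild boar, and its mean of 33.7 FPKM was above that of every member. VCAM1, an adhesion molecule of blood vessels, averaged 18.6 FPKM over the 6 libraries. Both were lowest in animal 2 of each breed, unlike the other 8 genes with a row, and neither was called. CCL2, a monocyte attractant, averaged 2.16 ± 0.732 FPKM in Rongchang and 1.10 ± 0.550 FPKM in wild boar (0.60 log2 units, adjusted p = 0.789), while CD83 had 0.18 and the stress-response gene GADD45B −0.23. IL1A stayed at or under 0.126 FPKM and CXCL8 at or under 0.0879 FPKM in every library, with CXCL8 listed at 0 in 4 of them. The list's median of 0.05 lay under that of all genes.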

How the data were processed

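Brain messenger RNA of 3 Rongchang pigs and 3 wild boars was sequenced with 1 library per animal. Per the labels' protocols, poly(A) RNA was selected and strand-marked libraries were read as pairs. The authors deposited 1 FPKM value per gene and library. The header names no unit, and FPKM was judged from the values and from TopHat2 2.0.11, Cufflinks 2.2.1 and Cuffdiff, which the submitters' processing notes list with no roles. Genome build, strand setting and any scaling between libraries are each not given in the sources used here.

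FPKM values hold no read counts. Below 0.15 FPKM, ratios of 2 libraries clustered weakly (at most 23.7% within any 0.04 log2 units), whole reads could not be recovered, depth is unknown and no interval based on it is given.

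Symbols came from a table of Ensembl identifiers, which named 10937 of 18225 rows (60.0%). The members, layers and gene lists were chosen with earlier results of these data known. Limma 3.58.1 in R 4.3.3, with a mean-variance trend, was fitted two-sided to log2(FPKM + 1) of all genes at 1 FPKM or more in at least 3 of 6 libraries, with Benjamini-Hochberg adjustment and a threshold of 0.05. It was tested on simulated data. In each layer the 4 genes with the smallest p and the 2 most abundant are given per library, and 3 genes at most per further list. Same-numbered libraries of the breeds deviated together, with correlations of 0.28, 0.59 and 0.37, where other pairs had −0.45 to 0.12. These passed a bound of 0.1, but so did Rongchang 1 with wild boar 3 (0.12). Deviations were taken from each breed's own mean, which ties these correlations to each other. The pairing was seen in the data and not in the labels, and was not tested. The paired fit, which takes animal number as a replicate block, is given where it moved a count. Other pseudocounts, filters, scalings, weights and left-out libraries were tried.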

Additional observations from a re-analysis of the deposited data

How the results depend on the processing

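No member was called under any of 17 alternatives, nor without both libraries numbered 2, an alternative chosen after seeing the data. Counts of members with an unadjusted p under 0.05 (2 of 35 as reported, beside 6.0% of all genes) moved with the setting. With a mean of at least 5 FPKM the count was 1 of 16 (beside 5.01% of all genes). It was 0 of 35 with median scaling (3.76%) and 1 of 35 with quantile normalization (3.76%). The replicate block alone gave 4 of 35 (17.4%). The block and median scaling gave 4 of 35 (10.5%), 2 of them the same, NFKBIE and NFKBIA. Without both libraries numbered 2 the count was 1 of 34 (IKBKG, beside 8.92%). When 1 library was left out it was 0 to 2, with 1 of 34 without Rongchang 2 (6.52%) and 0 of 33 without wild boar 3 (3.55%). Genes called over the whole table (1 as reported) were 3 with a pseudocount of 0.1 FPKM, 0 with a mean of at least 5 FPKM, 0 without both libraries numbered 2, and 0 (without Rongchang 3) to 4 (without wild boar 1) with 1 library left out. The cause was not tested.

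Of 23 members given per library, 9 changed sign under some setting. With median scaling, with or without the block, log2 fold changes were −0.0137 for BIRC3, −0.0872 for TRAF3, −0.0845 for NFKBIZ, −0.0193 for IRAK1, −0.0416 for IKBKG, −0.13 for NFKB2 and −0.14 for CD14. With quantile normalization they were −0.0682 for TRAF3, −0.10 for NFKBIZ, −0.00868 for IRAK1, −0.0335 for IKBKG, −0.13 for NFKB2 and −0.14 for CD14. Scaled to sums without mitochondrially encoded genes, NFKB2 was −0.00114 and CD14 −0.0207. With library weights NFKBIZ was −0.0046, NFKB2 −0.0107 and CD14 −0.0254. With 1 library left out, NFKBIZ ranged from −0.0362 to 0.0895, NFKB1 from −0.14 to 0.53, IRF5 from −0.27 to 0.0841, NFKB2 from −0.11 to 0.17 and CD14 from −0.10 to 0.13. Unknown depth limits what can be said of the 10 members under 1 FPKM.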
